A study of Mus musculus with 12 samples.

Results

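The genes described here are 10 members of Polycomb repressive complex 2 (PRC2), taken by name from the 55487 genes listed for each library: the catalytic genes Ezh2 and Ezh1, the core genes Eed and Suz12, the histone-binding genes Rbbp4 and Rbbp7, the Polycomb-like genes Phf1, Mtf2 and Phf19, and Jarid2. RNA was sequenced from mouse bone marrow cells sorted as LSK, which lack lineage markers and carry Sca1 and c-Kit and so include haematopoietic stem cells and early progenitors. The 12 libraries fall into 3 genotypes of 4 libraries each. The control is Yy1+/+, the second group is Yy1-/-, and the third is Yy1-/- Smc3+/-, which shares the Yy1-/- label and in addition has 1 altered allele of the cohesin gene Smc3. How the alleles were deleted, the sex and age of the mice, and whether a library came from 1 mouse or several are not given in the sources used here. All p-values therefore measure the spread between these libraries.

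PRC2 places methyl groups on lysine 27 of histone H3, a mark of silenced genes. EZH2 or EZH1 carries the methyltransferase site, EED and SUZ12 are needed for the complex to be stable and active, and RBBP4 or RBBP7 binds histones. Accessory subunits guide the core to chromatin in alternative forms, 1 with a Polycomb-like protein (PHF1, MTF2 or PHF19) and 1 with JARID2 and AEBP2. In blood formation PRC2 is known to keep developmental and cell cycle inhibitor genes silent, and EZH1 is known for supporting stem cells in the adult. YY1, a zinc finger protein, is the mammalian relative of the fly protein Pho, which recruits Polycomb complexes to DNA.

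Summed expected counts were between 38671354 and 69086104 per library. Yy1 had 33.9 to 41.3 CPM (reads scaled to a common library size with TMM factors) in the controls, and it fell in both other genotypes, to a mean of 4.65 in Yy1-/- and of 1.74 with the added Smc3+/-. More Yy1 reads remained in 3 libraries, Yy1-/- replicates 3 (5.01 CPM) and 4 (12.2 CPM) and Yy1-/- Smc3+/- replicate 3 (4.45 CPM), than in the other 5 libraries of those genotypes, at 0.407 to 0.996 CPM. Smc3 had 300.8 ± 38.1 CPM (SD, n = 4) with the label Smc3+/-, 255.5 ± 45.2 in Yy1-/- and 177.2 ± 25.2 CPM in the controls. Its mRNA thus was not reduced with that label against either genotype. It rose against Yy1+/+ in Yy1-/- (edgeR adjusted p = 0.0167) and in Yy1-/- Smc3+/- (edgeR adjusted p = 0.00254). Between Yy1-/- Smc3+/- and Yy1-/- it did not pass the test (log2 fold change 0.24, edgeR adjusted p = 0.819). Of the genes behind the sort, Ly6a, which encodes Sca1, was detected in every library and did not pass the test, whereas Kit, which encodes c-Kit, fell in both comparisons with Yy1+/+. Yy1-/- replicates 1 and 2 had summed CPM of 8 monocyte and macrophage genes of 6470 and 4450, against 468.8 to 1471 in the other 10 libraries. For 8 neutrophil genes the sum was 16960 CPM in Yy1-/- Smc3+/- replicate 3, against 1842 to 2574 in the others of that genotype. In Yy1+/+ replicate 2, the deepest library, 9 of the 10 PRC2 genes were the highest or the lowest of the 4 controls. There 8 genes that respond to tissue dissociation summed to 17790 CPM, against 667.2 to 7995 in the other controls. The median of this sum was 6869 CPM in the controls, 771.1 in Yy1-/- and 1935 in Yy1-/- Smc3+/-, and the libraries overlapped. Of these 8 genes 4 fell in Yy1-/- and 1 in Yy1-/- Smc3+/-, beside 18.8% and 16.7% of all tested genes. The part of dissociation in the PRC2 differences was not tested.

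The PRC2 genes covered a wide range of abundance in control LSK cells. TPM values, which correct for transcript length, were used wherever levels are compared between genes. Rbbp7 was the most abundant in Yy1+/+ at 455.3 ± 51.3 TPM (SD, n = 4), followed by Rbbp4 at 139.2 ± 35.5, Eed at 83.4 ± 10.1, Ezh2 at 64.3 ± 18.1 and Mtf2 at 51.9 ± 10.9 TPM. Ezh1 (30.3 ± 2.84 TPM), Suz12 (28.6 ± 9.20), Phf1 (15.7 ± 4.62), Jarid2 (14.5 ± 5.18) and Phf19 (4.76 ± 1.50) were lower. The libraries of neighbours in this order overlapped, except that Rbbp7 lay above Rbbp4, Mtf2 above Ezh1 and Jarid2 above Phf19 in every library. In both other genotypes Rbbp7 was again the highest and Phf19 the lowest, while Ezh1 had moved below Suz12, at 17.3 ± 4.21 against 27.1 ± 5.55 TPM in Yy1-/- and 18.5 ± 2.20 against 35.2 ± 7.79 TPM in Yy1-/- Smc3+/-. The libraries of these 2 genes overlapped in Yy1-/- and were apart in Yy1-/- Smc3+/-.

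The first comparison sets LSK cells labelled Yy1-/- against the controls. Ezh2 rose, and Ezh1, Phf1 and Phf19 fell, while the core genes Eed, Suz12, Rbbp4 and Rbbp7 and the accessory genes Mtf2 and Jarid2 did not pass the test (edgeR quasi-likelihood test, Benjamini-Hochberg adjusted p under 0.05 over 16649 genes). So 4 of 10 members changed, beside 35.2% of all tested genes, a share near the background. By direction, 1 member rose and 3 fell, beside 16.3% and 18.8% of all genes. The same 4 members had no overlap between the libraries of Yy1-/- and Yy1+/+, 1 higher and 3 lower, beside 30.9% of all genes, 13.4% higher and 17.5% lower. The median log2 fold change was 0.03 over the members and 0.006 over all tested genes.

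The comparison of Yy1-/- Smc3+/- with Yy1+/+ uses the same control libraries, so its values are given beside the first and are not separate evidence. Ezh2 again was the member that rose, and Ezh1, Phf1 and Phf19 were those that fell, again 4 of 10, beside 29.9% of all tested genes called in either direction, 13.1% that rose and 16.7% that fell. The libraries of 5 members did not overlap, 2 higher (Ezh2 and Suz12) and 3 lower, beside 32.2% of all genes, 14.7% higher and 17.6% lower. The median log2 fold change was 0.125 over the members and 0.02 over all tested genes. In bulk RNA, a change in the mix of cells within the sorted fraction and a change of RNA in each cell cannot be told apart.

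**Figure D1:**
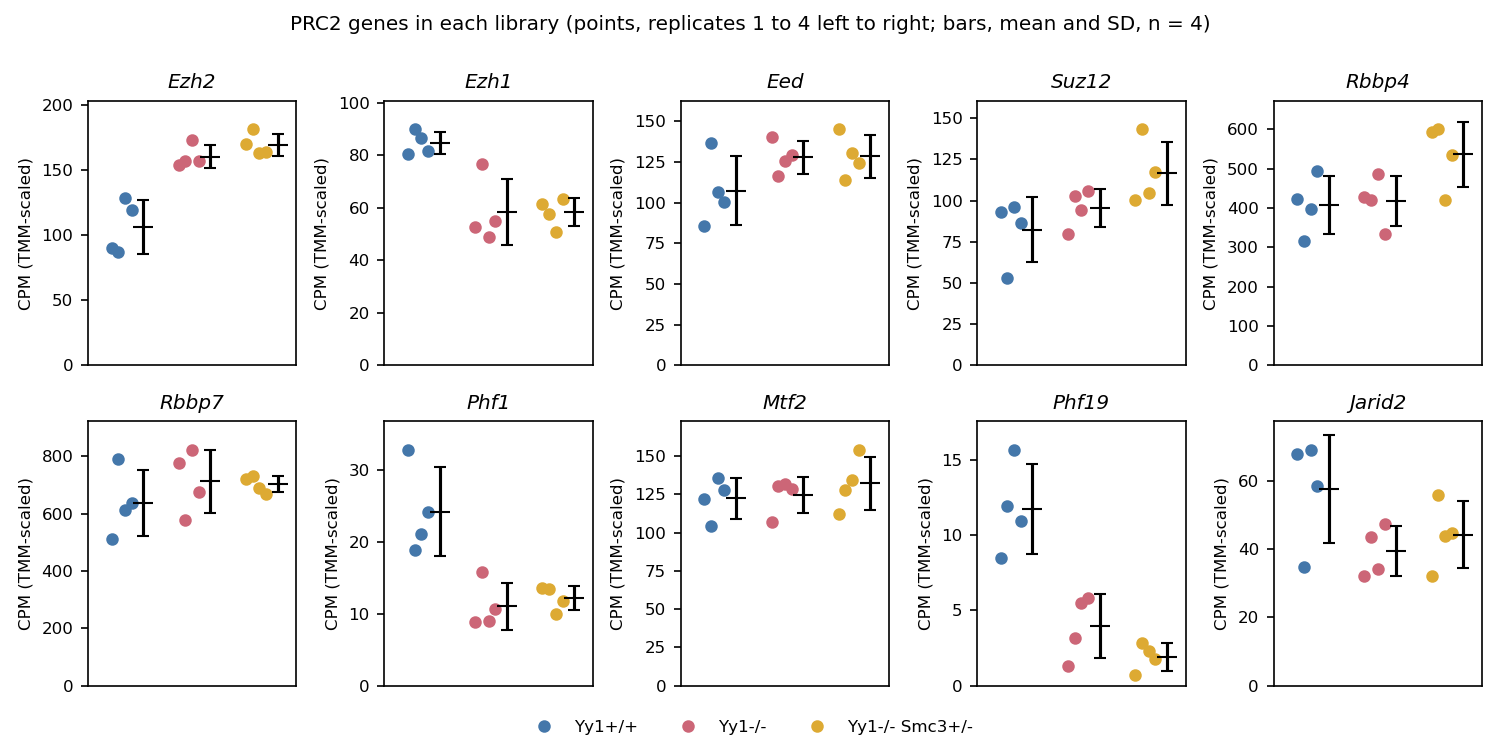
CPM of the 10 PRC2 genes (vertical axes, from 0) in each library, with Yy1+/+ in blue, Yy1-/- in red and Yy1-/- Smc3+/- in yellow; points are replicates 1 to 4 from left to right, and black bars are the mean and SD of 4 libraries. Ezh2 in the control libraries lies at 87.2 to 128.7 CPM, below all other libraries, and Ezh1, Phf1 and Phf19 lie above them, while points of the other genes overlap except for Suz12 in Yy1-/- Smc3+/-.

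Ezh2 (ENSMUSG00000029687.16, chr6:47530139-47595341, minus strand, GRCm38), the methyltransferase gene that is most active in dividing cells, rose in both genotypes labelled Yy1-/-. Its levels were 90.5, 87.2, 128.7 and 119.6 CPM in Yy1+/+ replicates 1 to 4, 153.5, 156.8, 173.2 and 157.2 CPM in Yy1-/-, and 170.0, 181.3, 162.8 and 163.9 CPM in Yy1-/- Smc3+/-. The controls were split into a lower and a higher pair, and every control lay below every other library. The log2 change of Ezh2 was 0.59 ± 0.13 (SE; 95% interval 0.30 to 0.88) in Yy1-/- (edgeR adjusted p = 0.00463) and 0.67 ± 0.13 (0.38 to 0.96) in the third genotype (edgeR adjusted p = 0.00255).

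Genes of mitosis moved with Ezh2. All 10 genes of a mitosis list rose in both comparisons, beside 16.3% and 13.1% of all tested genes. The list sum was 1049 to 1703 CPM in the controls, 2433 to 2988 in Yy1-/- and 2522 to 2985 in Yy1-/- Smc3+/-. The pair of controls with less Ezh2 was also the pair with the lowest mitosis sums. The part of cell division in the Ezh2 difference was not tested. The call for Ezh2 was lost on the log2 TPM scale (0.30, limma adjusted p = 0.215, in Yy1-/-, and 0.47, limma adjusted p = 0.0643, in Yy1-/- Smc3+/-), where the median of all genes itself lay at -0.21 and -0.13, so that Ezh2 stood 0.51 and 0.60 above it. Without the 3 libraries with more Yy1 reads the value was 0.51 in Yy1-/- (edgeR adjusted p = 0.0628).

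Ezh1 (ENSMUSG00000006920.14, chr11:101191115-101226463, minus strand), the second methyltransferase gene, which is expressed in resting as well as dividing cells, fell. Its levels were 80.7, 90.0, 86.6 and 81.7 CPM in Yy1+/+ replicates 1 to 4, 52.6, 76.9, 48.8 and 55.0 CPM in Yy1-/-, and 61.3, 57.8, 51.0 and 63.5 CPM in Yy1-/- Smc3+/-. The controls were close together and lay above all other libraries, with Yy1-/- replicate 2 nearest to them. The log2 fold change was -0.54 ± 0.15 (SE; 95% interval -0.86 to -0.22) in each comparison, with edgeR adjusted p = 0.0132 in Yy1-/- and 0.0159 in Yy1-/- Smc3+/-. Without the 3 libraries with more Yy1 reads it was -0.42 in Yy1-/- (edgeR adjusted p = 0.108). Stem and progenitor genes fell with Ezh1, 8 of 10 in Yy1-/- and 7 of 10 in Yy1-/- Smc3+/-. Their summed level was 3331 to 3763 CPM in the controls, 1732 to 2066 in Yy1-/- and 1779 to 2147 in Yy1-/- Smc3+/-. Over all tested genes 18.8% fell in Yy1-/- and 16.7% in Yy1-/- Smc3+/-. The sums of markers of some other cell types fell too, without overlap with the controls. The summed level of 8 erythroid genes was 1639 to 2489 CPM in the controls, 115.2 to 832.7 in Yy1-/- and 122.4 to 475.0 in Yy1-/- Smc3+/-. That of 7 megakaryocyte genes was 322.5 to 359.0, 160.0 to 196.6 and 87.7 to 214.2 CPM, and that of 6 mast cell and basophil genes 341.0 to 586.0, 134.0 to 169.1 and 107.3 to 227.3 CPM, in the same order. Of these 3 lists 3, 4 and 3 genes fell in Yy1-/- and 4, 3 and 3 in Yy1-/- Smc3+/-, beside the same shares of all genes. Their members Hba-a1, Hbb-bs, Cpa3 and Mcpt8 had higher means than the controls in both comparisons, without a call. The summed level of 5 eosinophil genes was 90.5 to 1911 CPM in the controls, 7.88 to 37.6 in Yy1-/- and 19.8 to 30.4 in Yy1-/- Smc3+/-. Of these eosinophil genes 3 fell in each comparison, beside the same shares, and Il5ra had a higher mean without a call. By contrast, 5 of 8 T and NK cell genes rose in each comparison. The summed level of this list nevertheless had a lower median in both genotypes. It was 232.9 CPM in the controls, 108.9 in Yy1-/- and 115.5 in Yy1-/- Smc3+/-, and the libraries overlapped. Its members Nkg7 and Lck had lower means than the controls in both comparisons, without a call. Of 8 monocyte and macrophage genes 7 rose in Yy1-/- and 4 in Yy1-/- Smc3+/-. Among 5 plasmacytoid dendritic cell genes 3 rose in Yy1-/- and 1 in Yy1-/- Smc3+/-. No gene of these 3 lists fell by the test. Over all tested genes 16.3% and 13.1% rose. Whether the mix of cells takes part in the fall of Ezh1 was not tested.

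The start regions of these paralogs, which moved in opposite directions, are shown as RefSeq gives them for GRCm38.p6, from 250 bases before to 30 bases after the annotated start, 5′ to 3′ on the strand of the gene. They lie at chr6:47595001-47595280 for Ezh2 and chr11:101226434-101226713 for Ezh1, both on the minus strand. Capitals mark 1 match to an E2F word (TTTGGCGC or TTTCGCGC, either strand), with its first base at position 4 after the start of Ezh2. E2F proteins are transcription factors of the cell cycle, and 0.752% of 32851 RefSeq promoters of this length hold either word. A match is a string of letters and no proof of binding, and no match in Ezh1 says only that neither this word nor the YY1 word described below is in its window.
Ezh2: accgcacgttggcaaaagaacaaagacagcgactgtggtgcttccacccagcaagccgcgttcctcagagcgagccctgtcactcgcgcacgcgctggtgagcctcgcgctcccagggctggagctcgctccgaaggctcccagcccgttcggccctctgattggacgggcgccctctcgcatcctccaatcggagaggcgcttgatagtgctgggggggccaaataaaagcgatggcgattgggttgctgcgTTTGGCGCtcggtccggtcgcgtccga
Ezh1: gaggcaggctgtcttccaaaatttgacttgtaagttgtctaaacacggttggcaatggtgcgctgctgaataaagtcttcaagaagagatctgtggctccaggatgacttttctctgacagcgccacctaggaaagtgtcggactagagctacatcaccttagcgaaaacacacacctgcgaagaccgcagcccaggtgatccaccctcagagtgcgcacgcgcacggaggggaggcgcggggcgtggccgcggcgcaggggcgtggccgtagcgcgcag

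The balance of the 2 catalytic genes shifted in each genotype labelled Yy1-/-. Ezh2 TPM divided by Ezh1 TPM was 1.89, 1.61, 2.48 and 2.42 in control replicates 1 to 4, 4.74, 3.35, 5.75 and 4.63 in Yy1-/-, and 4.48, 5.08, 5.20 and 4.19 in Yy1-/- Smc3+/-. Every library labelled Yy1-/-, with or without Smc3+/-, had a higher ratio than every control. The mean ratio was 2.10 ± 0.420 (SD, n = 4) in the controls, 4.62 ± 0.986 in Yy1-/- and 4.74 ± 0.481 in Yy1-/- Smc3+/-. The summed TPM of Ezh1 and Ezh2 was 94.6 ± 20.8, 94.5 ± 10.1 and 105.6 ± 9.91 in the 3 genotypes, in the order control, Yy1-/- and Yy1-/- Smc3+/-, differences within the spread between controls on this scale. In CPM, which leaves length in, the sum was 191.2 ± 20.6, 218.5 ± 12.1 and 227.9 ± 10.6, and both differences from the controls were larger than the SD of any genotype. This ratio restates the changes of both genes and is given without a test.

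**Figure D2:**
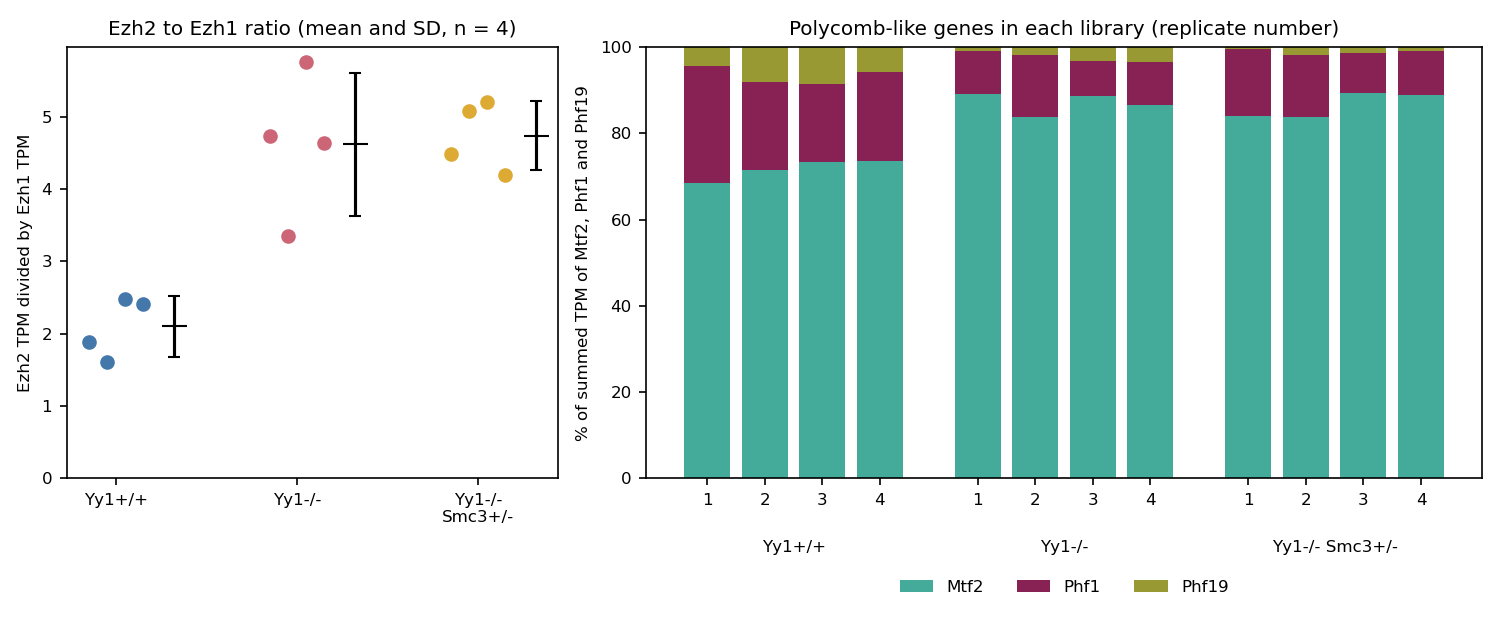
Left, the ratio of Ezh2 TPM to Ezh1 TPM (vertical axis, from 0) in each library (points) with mean and SD of 4 libraries (bars); right, the share of Mtf2, Phf1 and Phf19 in their summed TPM (vertical axis, %) in each library, numbered by replicate. The ratio lies at 1.61 to 2.48 in Yy1+/+ and at 3.35 to 5.75 in the other libraries, and the share of Mtf2 lies at 68.4% to 73.5% in Yy1+/+ and at 83.7% to 89.4% in the others.

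Eed (ENSMUSG00000030619.9, chr7:89954654-89980983, minus strand) encodes the subunit that binds methylated lysine 27, and it did not pass the test. It had 85.9, 136.4, 106.7 and 100.2 CPM in Yy1+/+ replicates 1 to 4, 140.5, 116.2, 125.7 and 129.3 CPM in Yy1-/-, and 145.1, 113.8, 130.4 and 124.4 CPM in Yy1-/- Smc3+/-. The highest control, replicate 2, lay within the range of both other genotypes, and the other 3 controls lay below both ranges. The log2 fold changes were 0.25 (95% interval -0.06 to 0.56, edgeR adjusted p = 0.19) and 0.26 (-0.05 to 0.57, edgeR adjusted p = 0.196). Without Yy1+/+ replicate 2 Eed passed the test in both, at 0.39 (edgeR adjusted p = 0.0323) and 0.40 (0.0357).

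Suz12 (ENSMUSG00000017548.15, chr11:79993106-80034123, plus strand), the scaffold on which the core and the accessory subunits assemble, did not pass the test either. It had 92.8, 53.2, 96.4 and 86.4 CPM in Yy1+/+ replicates 1 to 4, 79.6, 102.6, 94.5 and 105.6 CPM in Yy1-/-, and 100.4, 143.3, 104.6 and 117.6 CPM in Yy1-/- Smc3+/-. Control replicate 2 was well below the other controls, and all Yy1-/- Smc3+/- libraries lay above all controls, whereas Yy1-/- overlapped them. Its log2 fold change was 0.22 (95% interval -0.18 to 0.62, edgeR adjusted p = 0.386) in Yy1-/- and 0.50 (0.10 to 0.91, edgeR adjusted p = 0.0571) in Yy1-/- Smc3+/-. The second value passed the test with DESeq2 (0.49, DESeq2 adjusted p = 0.0481).

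Rbbp4 and Rbbp7 encode histone chaperones that also serve in the NuRD and SIN3 deacetylase complexes, and RBBP4 in chromatin assembly factor 1. Rbbp4 (ENSMUSG00000057236.10, chr4:129307100-129335370, minus strand) had 423.6, 316.1, 398.3 and 494.7 CPM in Yy1+/+ replicates 1 to 4, 428.1, 419.6, 487.2 and 334.1 CPM in Yy1-/-, and 592.7, 599.6, 420.9 and 533.8 CPM in Yy1-/- Smc3+/-. Yy1-/- libraries lay within the control range, and 3 of 4 Yy1-/- Smc3+/- libraries lay above every library of the other genotypes. The log2 fold change was 0.03 (95% interval -0.32 to 0.39, edgeR adjusted p = 0.899) in Yy1-/- and 0.40 (0.04 to 0.75, edgeR adjusted p = 0.0865) in Yy1-/- Smc3+/-. The second value passed the test without Yy1-/- Smc3+/- replicate 3, the library with the high neutrophil sum (0.50, edgeR adjusted p = 0.0439). The part of that sum in the Rbbp4 value was not tested. Rbbp7 (ENSMUSG00000031353.13, chrX:162760402-162779092, plus strand) ranged from 511.5 to 791.8 CPM in the controls, from 578.4 to 824.0 in Yy1-/- and from 667.9 to 732.7 in Yy1-/- Smc3+/-, ranges that overlap. Its log2 fold changes were 0.16 (95% interval -0.15 to 0.48, edgeR adjusted p = 0.419) and 0.14 (-0.17 to 0.46, edgeR adjusted p = 0.501). Rbbp7 TPM divided by Rbbp4 TPM was 3.50 ± 1.28 (SD, n = 4) in the controls, 3.68 ± 0.578 in Yy1-/- and 2.84 ± 0.442 in Yy1-/- Smc3+/-, differences within the spread between controls.

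The 3 Polycomb-like genes encode alternative partners of the core that bind DNA rich in CpG and carry a Tudor domain, and they did not move together. Phf19 and Phf1 fell in both comparisons, while Mtf2, the most abundant of them, did not pass the test in either.

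Phf19 (ENSMUSG00000026873.9, chr2:34893757-34914026, minus strand) had the lowest level of the 10 members and the largest fold change of those that fell. It had 8.47, 11.9, 15.7 and 10.9 CPM in Yy1+/+ replicates 1 to 4, 1.296, 3.17, 5.48 and 5.80 CPM in Yy1-/-, and 0.684, 2.81, 2.30 and 1.76 CPM in Yy1-/- Smc3+/-. No library of either other genotype reached the lowest control. Phf19 changed by -1.57 ± 0.41 (log2, SE; 95% interval -2.45 to -0.69) in Yy1-/- (edgeR adjusted p = 0.00936) and by -2.65 ± 0.45 (-3.62 to -1.68) in the third genotype (edgeR adjusted p = 0.000851). Within Yy1-/-, replicates 3 and 4, which kept more Yy1 reads, had more Phf19 than replicates 1 and 2, which had the high monocyte sums. In Yy1-/- Smc3+/- the library with more Yy1 reads, replicate 3, lay within the range of the others. Without Yy1-/- replicates 1 and 2 the log2 fold change in Yy1-/- was -1.09 and missed the threshold (edgeR adjusted p = 0.0642).

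Phf1 (ENSMUSG00000024193.8, chr17:26933052-26937908, plus strand) had 32.8, 18.8, 21.0 and 24.2 CPM in Yy1+/+ replicates 1 to 4, 8.85, 15.7, 8.91 and 10.6 CPM in Yy1-/-, and 13.6, 13.4, 9.91 and 11.8 CPM in Yy1-/- Smc3+/-. All controls lay above all other libraries, with Yy1-/- replicate 2 the closest to them. Phf1 changed by -1.13 ± 0.24 (log2, SE; 95% interval -1.65 to -0.61) in Yy1-/- (edgeR adjusted p = 0.00305) and by -0.99 ± 0.24 (-1.50 to -0.47) in the third genotype (edgeR adjusted p = 0.00796). Phf1 passed the test in all 19 alternatives of each comparison. Of its 3486 exon bases, 1370 (39.3%) also lie in exons of Cuta, a gene on the opposite strand, and the library kit does not mark the strand, so reads of these bases cannot be told apart by strand. The expected counts of Phf1 were whole in all 12 libraries, so they held no reads divided between genes. Which reads of the shared bases were counted for Phf1 was not tested. Cuta rose where Phf1 fell, from 43.8 ± 3.23 CPM (SD, n = 4) to 66.4 ± 11.7 in Yy1-/- (log2 fold change 0.60, edgeR adjusted p = 0.0142) and 66.9 ± 14.2 in Yy1-/- Smc3+/- (0.61, edgeR adjusted p = 0.0153).

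The start regions of Phf19 and Phf1, the accessory genes that fell, are given in the same way, at chr2:34913947-34914226 on the minus strand and chr17:26932877-26933156 on the plus strand. Capitals mark 1 match to the YY1 word GCCATNTT, read on either strand, here as its reverse complement AAGATGGC with its first base at position -192 from the start of Phf19. The word is in 5.22% of 32851 RefSeq promoters of this length, and 5.99% of 27025 genes have a promoter with it. Among the 10 members it is in a promoter of Phf19 and of Jarid2, and does not overlap an E2F word in them. All 10 members had a RefSeq promoter. Whether YY1 binds at any of them was not measured.
Phf19: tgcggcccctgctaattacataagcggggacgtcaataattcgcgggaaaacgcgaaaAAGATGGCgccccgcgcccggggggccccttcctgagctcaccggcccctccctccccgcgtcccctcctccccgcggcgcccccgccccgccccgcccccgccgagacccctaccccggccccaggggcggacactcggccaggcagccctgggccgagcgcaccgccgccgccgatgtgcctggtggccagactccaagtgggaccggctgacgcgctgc
Phf1: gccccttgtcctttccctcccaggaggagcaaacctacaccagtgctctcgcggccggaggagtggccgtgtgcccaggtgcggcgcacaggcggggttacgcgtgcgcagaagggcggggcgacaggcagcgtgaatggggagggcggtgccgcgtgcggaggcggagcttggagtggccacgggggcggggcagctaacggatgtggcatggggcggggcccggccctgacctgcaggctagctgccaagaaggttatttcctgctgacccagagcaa

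Mtf2 (ENSMUSG00000029267.17, chr5:108065674-108109004, plus strand) had 121.9, 104.0, 135.8 and 127.9 CPM in Yy1+/+ replicates 1 to 4, 106.8, 130.5, 132.1 and 128.8 CPM in Yy1-/-, and 112.4, 128.0, 134.4 and 154.3 CPM in Yy1-/- Smc3+/-. The 3 genotypes overlapped. Its log2 fold changes were 0.03 (95% interval -0.26 to 0.31, edgeR adjusted p = 0.899) and 0.11 (-0.17 to 0.40, edgeR adjusted p = 0.557). As a share of the summed TPM of the 3 Polycomb-like genes, Mtf2 made up 71.7% ± 2.38 (SD, n = 4) in the controls, 87.0% ± 2.45 in Yy1-/- and 86.6% ± 3.05 in Yy1-/- Smc3+/-. Phf1 made up 21.6%, 10.6% and 12.3%, and Phf19 6.70%, 2.36% and 1.16%. The sum itself was 72.3 ± 14.8, 54.4 ± 8.81 and 57.3 ± 6.61 TPM.

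Jarid2 (ENSMUSG00000038518.15, chr13:44729474-44921643, plus strand), whose product binds nucleosomes and is methylated by PRC2, had a mean below the control in both other genotypes without passing the test. It had 67.8, 34.8, 69.1 and 58.5 CPM in Yy1+/+ replicates 1 to 4, 32.2, 43.6, 34.1 and 47.4 CPM in Yy1-/-, and 31.97, 55.9, 43.9 and 44.8 CPM in Yy1-/- Smc3+/-. Control replicate 2 lay among the libraries of the other genotypes, and the other 3 controls lay above all of them. The log2 fold change was -0.55 (95% interval -1.04 to -0.05, edgeR adjusted p = 0.0812) in Yy1-/- and -0.38 (-0.88 to 0.11, edgeR adjusted p = 0.231) in Yy1-/- Smc3+/-. Without Yy1+/+ replicate 2 it fell in both, by -0.73 (edgeR adjusted p = 0.0128) and -0.56 (0.0479). With Eed and Jarid2, 6 of 10 members changed in each comparison without that control, beside 35.3% and 28.3% of all genes in the same fits.

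The comparison of Yy1-/- Smc3+/- with Yy1-/- asks what an altered Smc3 allele adds. None of the 10 members passed the edgeR test, beside 0.036% of all tested genes, and none was free of overlap, beside 2.01% of all genes, 1.13% higher and 0.883% lower. DESeq2 also called 0 members, beside 0.33% of all genes, and so did edgeR without the 3 libraries with more Yy1 reads, beside 1.76%. In edgeR 2 of 10 members had an unadjusted p under 0.05, beside 6.46% of all genes. These were Phf19, at -1.07 (95% interval -2.12 to -0.03, edgeR adjusted p = 0.756), and Rbbp4, at 0.36 (0.01 to 0.72, edgeR adjusted p = 0.756). The log2 fold changes of the 9 members other than Phf19 were between -0.02 and 0.36, and their 95% intervals lay within -0.39 and 0.72. For Ezh2 the interval was -0.21 to 0.37 and for Ezh1 -0.32 to 0.32. The median was 0.085 over the members and 0.0 over all tested genes.

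**Figure D3:**
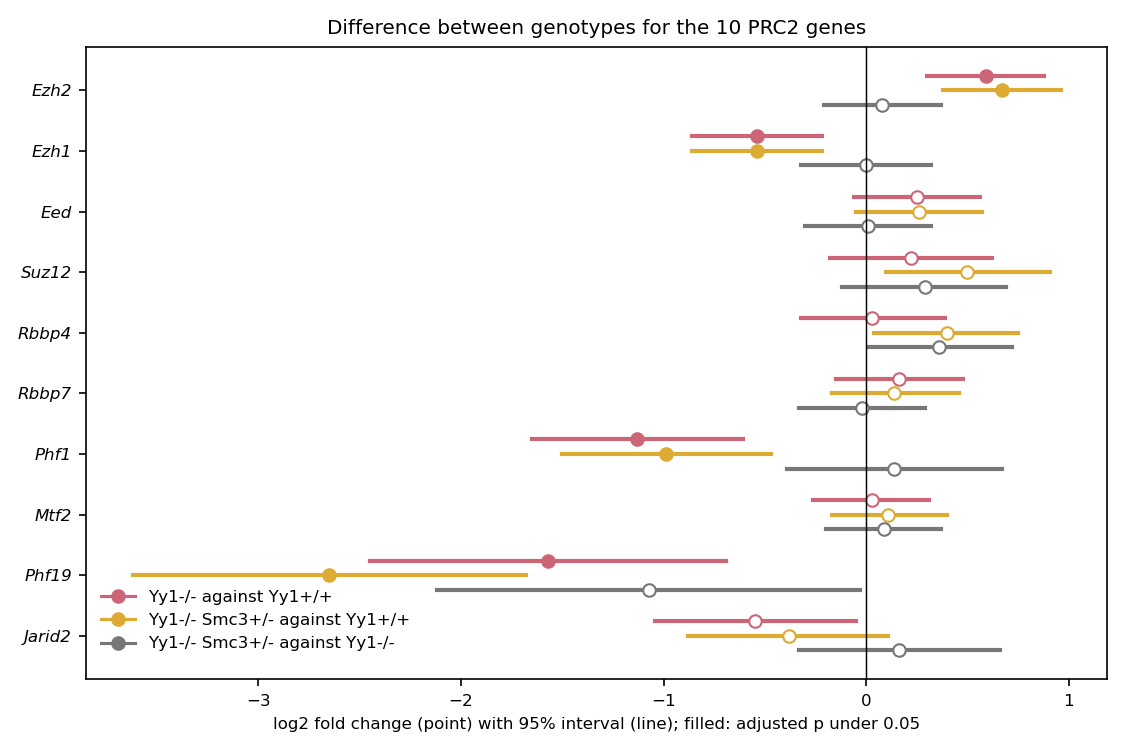
Log2 fold change (points, horizontal axis) with its 95% interval (lines) for the 10 PRC2 genes in the 3 comparisons, filled where the edgeR adjusted p was under 0.05. Ezh2 lies to the right of 0 at 0.59 and 0.67, Ezh1, Phf1 and Phf19 lie to the left in both comparisons with Yy1+/+, and no point is filled between Yy1-/- Smc3+/- and Yy1-/-.

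Genes that work with or against PRC2 were read from 6 lists holding 54 genes, of which 36 were tested. In Yy1-/- 3 of them rose and 1 fell, beside 16.3% and 18.8% of all genes, and in Yy1-/- Smc3+/- 4 rose and 3 fell, beside 13.1% and 16.7%. Of those that rose, 2 in each comparison were Igf2bp3 and Cdkn2a. Both passed the filter only through genotypes where they were high, as described below, so these counts cannot be read against the shares of all genes. Among further PRC2 subunits, Aebp2, the partner of Jarid2, Epop, Lcor and Lcorl did not pass the test in either comparison, with medians of 0.18 and 0.32, and the inhibitor Ezhip was too low to test. Of the demethylase genes that remove the PRC2 mark, Kdm6b did not pass, and Kdm6a fell in Yy1-/- Smc3+/-. Kdm6a had 54.5, 38.3, 88.9 and 64.2 CPM in control replicates 1 to 4, against 17.3, 34.5, 44.7 and 24.2 CPM in Yy1-/- Smc3+/-, so the libraries overlapped (log2 fold change -1.03 ± 0.30 SE, edgeR adjusted p = 0.02). Its adjusted p was between 0.00409 and 0.0668 over 19 alternatives, of which 16 called it. In Yy1-/- the value for Kdm6a was -0.71 (edgeR adjusted p = 0.0785).

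The PR-DUB complex removes ubiquitin from histone H2A. Of its 3 tested genes none passed the test, with Bap1, the protease, at -0.45 (edgeR adjusted p = 0.0571) and -0.29 (0.222). Of 15 genes of the other complexes that hold RBBP4 or RBBP7, 1 rose in each comparison. Gatad2b, a NuRD subunit gene, rose in Yy1-/- (0.59 ± 0.21, edgeR adjusted p = 0.046, and 0.0283 to 0.331 over 19 alternatives, of which 6 called it). Chaf1a, the large subunit gene of chromatin assembly factor 1, rose in Yy1-/- Smc3+/- (0.49 ± 0.16, edgeR adjusted p = 0.0337, and 0.0107 to 0.297 over 19 alternatives, of which 8 called it).

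E2F and pocket proteins control Ezh2 and Eed in dividing cells. Of 8 such genes, E2f6 fell in both comparisons. E2f6 encodes a repressor that lacks the transactivation domain and is part of a Polycomb repressive complex 1 variant. It had 94.1, 109.8, 106.8 and 102.0 CPM in Yy1+/+ replicates 1 to 4, 44.5, 48.2, 49.0 and 42.1 CPM in Yy1-/-, and 59.1, 56.0, 49.0 and 46.3 CPM in Yy1-/- Smc3+/-. All controls lay far above all other libraries. The log2 fold change was -1.17 ± 0.12 (SE) in Yy1-/- (edgeR adjusted p = 3.18e-05) and -0.97 in Yy1-/- Smc3+/- (edgeR adjusted p = 0.000111), and both passed the test in all 19 alternatives. Rbl1, the p107 pocket protein gene, rose in Yy1-/- Smc3+/- (0.61, edgeR adjusted p = 0.0279, and 0.0159 to 0.224 over 19 alternatives, of which 9 called it), and the other 6 genes did not pass in either comparison.

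Most genes of a list of those known to be silenced by PRC2 had no reads. Of the 20 genes, 12 had none in any library, 2 (Igf2bp3 and Hmga2) reached 1 CPM in some library and 4 were tested. Igf2bp3, an RNA-binding protein gene of fetal blood cells, rose from 0.286 ± 0.250 CPM (SD, n = 4) to 10.4 ± 5.76 in Yy1-/- and 11.1 ± 6.44 in Yy1-/- Smc3+/-. Its libraries were between 0.0225 and 0.584 CPM in Yy1+/+ and between 5.54 and 20.6 CPM in all others, with no overlap. The log2 fold changes of Igf2bp3 were 5.07 and 5.16. Cdkn2a, which encodes the cell cycle inhibitors p16 and p19ARF, had no reads in any control and few elsewhere. It had 15 to 26 counts in each Yy1-/- library and 1 to 8 in each Yy1-/- Smc3+/- library. Against a floor of 3 counts over the control group (0.0145 CPM), it was at least 31.8-fold higher in Yy1-/- and at least 8.69-fold higher in Yy1-/- Smc3+/-. Cdkn2a reached the minimum count in 4 Yy1-/- libraries and in 0 libraries of the other genotypes, so it was tested only because it was high in Yy1-/-, and no p is given for it, although it is in the counts of genes that rose. Igf2bp3 reached that minimum in 2 controls and in all 8 other libraries. It was thus tested through the genotypes where it was high. No p is given for it either, although it too is in those counts. These floors cover counting error only. Cdkn2b, which encodes the inhibitor p15, had 0.109 ± 0.143 CPM in the controls, 0.465 ± 0.284 in Yy1-/- and 0.497 ± 0.357 in Yy1-/- Smc3+/-. The genotypes overlapped, and Cdkn2b was not called in either comparison. It reached the minimum count in 1 control, in 2 Yy1-/- libraries and in 3 Yy1-/- Smc3+/- libraries. Cdkn2b too was thus tested through the genotypes where it was high, and no p is given for it. Lin28b, a regulator of fetal blood formation that was too low to test, had 8 to 19 counts in each control, 2 in 1 Yy1-/- library and 11 in 1 Yy1-/- Smc3+/- library, and 0 in the other 6 libraries.

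Hmga2, a chromatin protein gene of fetal stem cells, had a lower mean than the controls in both other genotypes, as Lin28b had. It had 4.13, 2.59, 4.76 and 5.75 CPM in Yy1+/+ replicates 1 to 4, 1.91, 0.817, 1.46 and 4.68 CPM in Yy1-/-, and 1.72, 1.43, 1.55 and 1.09 CPM in Yy1-/- Smc3+/-. The libraries of Yy1-/- overlapped the controls through replicate 4, and those of Yy1-/- Smc3+/- did not. It fell in Yy1-/- Smc3+/- (-1.55, edgeR adjusted p = 0.0261, and 0.00721 to 0.0718 over 19 alternatives, of which 14 called it) and was at -0.97 in Yy1-/- (edgeR adjusted p = 0.109). Between Yy1-/- Smc3+/- and Yy1-/-, 0 of the 36 tested genes of the 6 lists passed edgeR, beside 0.036% of all genes, or DESeq2, beside 0.33%, or edgeR without the 3 libraries with more Yy1 reads, beside 1.76%, and 1 had an unadjusted edgeR p under 0.05, Cdkn2a, which was tested only through the Yy1-/- libraries. The histone mark itself was not measured.

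**Figure D4:**
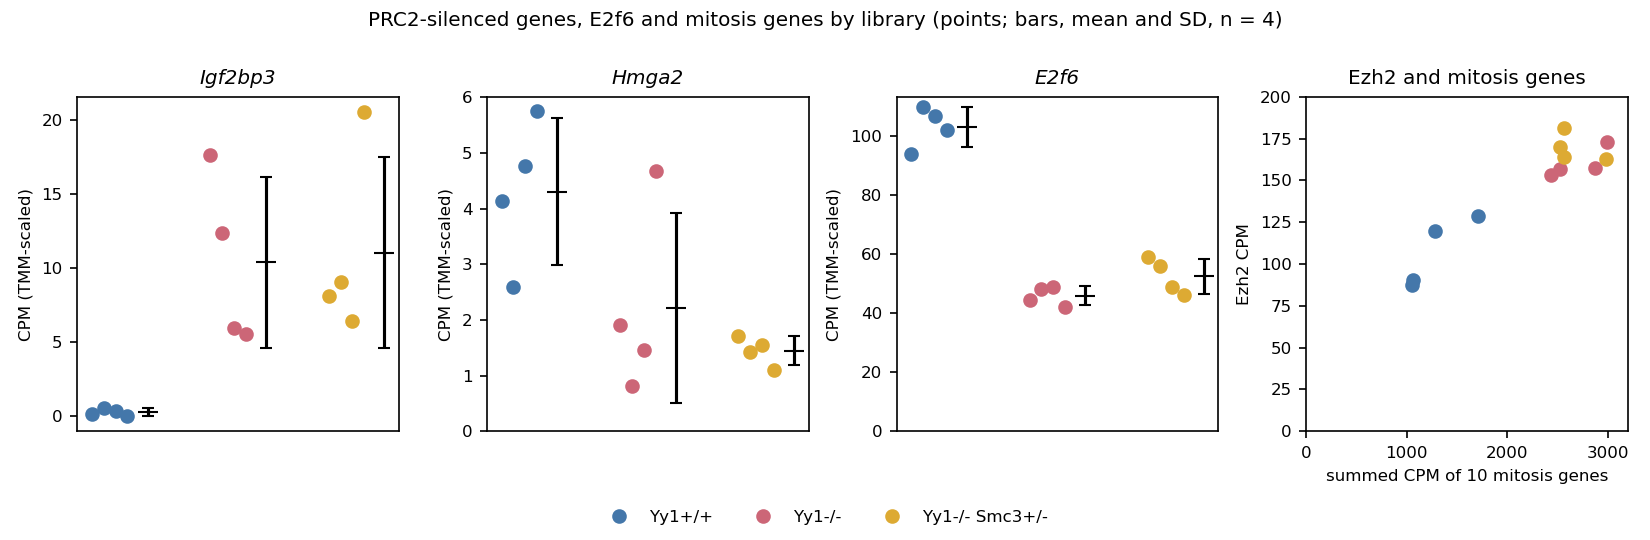
The first 3 panels give CPM (vertical axes) of Igf2bp3, Hmga2 and E2f6 in each library (points) with mean and SD of 4 libraries (bars), and the last gives Ezh2 CPM against the summed CPM of 10 mitosis genes, 1 point per library. Igf2bp3 is at most 0.584 CPM in the controls and at least 5.54 CPM in all other libraries, E2f6 separates in the other direction, and controls have both the lowest Ezh2 and the lowest mitosis sums.

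The genes whose pattern over the 12 libraries was most like that of the catalytic genes were found by the root mean square difference of centred log2 CPM among 10793 genes whose mean reached 5 CPM. For Ezh2 they were Ipp (0.086 log2 units), Fastkd3 (0.094) and Cdca4 (0.097). Cdca4 had 105.3 ± 11.4 CPM (SD, n = 4) in the controls, 165.7 ± 18.4 in Yy1-/- and 170.8 ± 4.31 in Yy1-/- Smc3+/-. For Ezh1 they were Vps39 (0.119), Orai2 (0.121) and Camk2d (0.136). Vps39 had 122.6 ± 2.99 CPM in the controls, 73.5 ± 18.0 in Yy1-/- and 80.4 ± 12.9 in Yy1-/- Smc3+/-. These genes share the libraries and their scaling with the genes they resemble.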

How the data were processed

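Per the labels' protocols, RNeasy Micro columns gave the RNA of sorted LSK cells and SMART-Seq v4 the libraries, a kit that does not mark the strand. STAR 2.5.2b, RSEM 1.3.0 and mm10 are named per the submitters' processing notes, and their settings and the annotation are not given in the sources used here. The deposited tables, per the file headers, are RSEM gene tables with an expected count per gene, in which reads matching several genes are divided, and a TPM value scaled for length and depth. The deposited FPKM values were not used, and the authors' effective length, per the file headers, served 1 alternative. The expected counts of 6 members were whole in all libraries (tolerance 1e-06), while those of Eed, Rbbp4, Mtf2 and Suz12 held divided reads.

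Symbols came from GENCODE M21 (GRCm38): 55094 identifiers matched with their version, 300 with another version and 93 did not. Expected counts were rounded, genes filtered at a minimum count of 10 and a total of 15, and 1 quasi-likelihood model over all 12 libraries fitted with edgeR 4.0.16 (R 4.3.3, TMM factors), after tests on simulated data. All 10 members passed the filter. A gene was called at Benjamini-Hochberg adjusted p under 0.05 over 16649 genes. Each comparison was also run with DESeq2 1.42.0, with limma 3.58.1 on log2 TPM, with other filters and scalings, and without each library. Exons of 7 members overlap a gene on the opposite strand.

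The genes named are the 10 members, the called members of the 6 related lists with the subunits and demethylases described, the 3 genes most like Ezh1 and Ezh2, and genes that check the labels. The members and lists were chosen with earlier results of these data known.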

Additional observations from a re-analysis of the deposited data

Results flagged for a closer look

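In the 4 Yy1-/- libraries 1 value of Mtf2 stood apart: replicate 1 had 106.8 CPM and the other 3 had 128.8 to 132.1 CPM. The gap was 0.869 of the range of the group, above Dixon's critical value at a level of 95% for 4 samples. This was the 1 case in 30 groups examined, the 10 members in 3 genotypes, and chance alone marks about 1 in 20 groups. The same library had the highest summed CPM of monocyte and macrophage genes, 6470, and its part in the Mtf2 value was not tested.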

How the results depend on the processing

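The 8 changes called among the members kept their direction in all 152 settings tried and their call in 145. The 22 changes not called passed the test in 6 of 418 settings and turned sign in 54. Without the 3 libraries with more Yy1 reads, 2 members changed in Yy1-/- in place of 4 (0 higher and 2 lower), in a fit with 2 Yy1-/- libraries that called 27.5% of all genes. Leaving out 1 library gave 4 to 6 called members in each comparison with Yy1+/+ and 0 between the others. Of the 36 related genes, 4 changed in Yy1-/- and 7 in Yy1-/- Smc3+/-. Both counts include Igf2bp3 and Cdkn2a, which were tested only through genotypes where they were high. In Yy1-/- the count was 9 and 8 on log2 TPM with pseudocounts of 0.5 and 0.1, and 3 to 7 without 1 library. In Yy1-/- Smc3+/- it was 4 without the low-count filter, 4 without the libraries with more Yy1 reads, and 4 to 7 without 1 library. The cause was not tested.

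With CPM in place of TPM, which leaves length in, the Ezh2 to Ezh1 ratio was 1.26 in the controls, 2.84 in Yy1-/- and 2.92 in Yy1-/- Smc3+/-, Rbbp7 to Rbbp4 was 1.64, 1.73 and 1.33, and the Mtf2 share was 77.3% in Yy1+/+ and 90.3% in Yy1-/- Smc3+/-.

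Signs turned as follows, all in log2 units and all without a call. On log2 TPM, with pseudocounts of 0.5 and 0.1, Yy1-/- against Yy1+/+ gave -0.003 and -0.003 for Eed, -0.026 and -0.025 for Suz12, -0.234 and -0.235 for Rbbp4, -0.114 and -0.114 for Rbbp7, and -0.118 and -0.119 for Mtf2. Yy1-/- Smc3+/- against Yy1+/+ gave -0.031 for Rbbp7 and -0.044 for Mtf2 with either, and against Yy1-/- 0.083 for Rbbp7. Without the low-count filter Yy1-/- against Yy1+/+ gave -0.009 for Rbbp4 and -0.017 for Mtf2. Without the 3 libraries with more Yy1 reads Mtf2 was at -0.077, and without Yy1-/- replicates 1 and 2 Rbbp4 was at -0.021. Between Yy1-/- Smc3+/- and Yy1-/-, Ezh1 was at -0.006 with RLE factors, the stricter filter or DESeq2, -0.011 without a filter and -0.103 without the libraries with more Yy1 reads. Eed was at -0.004 with RLE factors or DESeq2, -0.006 without a filter, -0.003 with the stricter filter, -0.019 without the libraries with more Yy1 reads and -0.001 without Yy1-/- replicates 1 and 2. Rbbp7 was at 0.003 in a fit of 2 genotypes and 0.052 without the libraries with more Yy1 reads, and Mtf2 at -0.013 with the effective length. Leaving out 1 library gave -0.083 to 0.16 for Ezh1, -0.058 to 0.045 for Eed and -0.11 to 0.047 for Rbbp7 in that comparison, and -0.08 to 0.13 for Rbbp4 and -0.048 to 0.076 for Mtf2 in Yy1-/- against Yy1+/+.

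The older edgeR quasi-likelihood method was added after seeing the data and changed no member's call. No paired analysis was possible because the numbers in the sample titles are not shared between genotypes. Replicate numbers 1 to 4 used here only count the libraries within each genotype. The 4 libraries per genotype limit the precision, with 95% intervals in Yy1-/- from 0.30 to 0.88 for Ezh2 and from -2.45 to -0.69 for Phf19.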
